A study of Mus musculus with 8 samples.

Results

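The interferon-inducible GTPase genes were examined in mesenchymal stem/progenitor cells (MSPCs) sorted from mouse bone marrow. The members are 10 genes given by name, Igtp, Irgm1, Irgm2, Iigp1, Tgtp1, Tgtp2, Ifi47, Gbp2, Gbp3 and Gbp7, of the 52636 gene rows in the count table, and the names were matched to the rows by Ensembl identifier. All 10 had a count in every library and so passed the filter on low values. The study asked whether niche cells change when multipotent progenitors cannot respond to CXCL12, and bulk poly(A) RNA of 8 mice was sequenced, 1 library per mouse. The 4 CTL mice were Flk2-cre+ Cxcr4fl/+ and the 4 cKO mice were Flk2-cre+ Cxcr4fl/fl. Both groups therefore carried the Cre transgene and at least 1 floxed Cxcr4 allele, and CTL mice were not wild type. The Cre is driven by Flk2 regulatory sequence, acts in blood progenitors and their progeny, and sits on the Y chromosome according to the study's methods. Both groups were on C57BL/6 with an age of 6 weeks in the labels, whereas the methods give an older range for all mice. The sorted cells were CD45- Ter119- CD31- CD144- PDGFRα+ and positive for GFP expressed from the SCF (Kitl) locus, and they were sorted a second time through the same gate. This sort needs a GFP allele at Kitl in both groups, and the methods list KitlGFP/+ mice, but the genotypes above do not name it. In the study, cKO mice that carried this allele had membrane-bound SCF and stem cell numbers at about control levels. The sample titles also carry a number in 1 of 2 ranges, 26 to 32 (replicates 2 and 4 of each genotype) and 67 to 86 (replicates 1 and 3), and neither the labels nor the methods say what the number stands for.

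Interferon-inducible GTPases are strongly induced by interferons in many cell types. Interferon gamma acts mainly through GAS elements and IRF1, and type I interferons act through a complex with STAT2 and IRF9 that binds ISRE elements. The immunity-related GTPases (IRGs) and guanylate-binding proteins (GBPs) load onto the vacuoles of intracellular pathogens and disrupt them. Irgm1, Irgm2 and Igtp (also named Irgm3) are regulatory IRGs that reside on the cell's own membranes and keep the effector IRGs inactive there. Iigp1 (Irga6), the Tgtp proteins (Irgb6) and Ifi47 (Irgd) are effector IRGs. Gbp2, Gbp3 and Gbp7 are large GTPases that coat vacuoles and bacteria.

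The promoters of the members are shown first because these elements are what the family is known to share. RefSeq promoter windows of 300 bases (250 before and 50 after the annotated start, build GRCm38.p6) were matched by symbol for 9 of the 10 members, with none used for Iigp1. They were searched on both strands for the ISRE core (GAAA, any 2 bases, GAAA) and the GAS core (TTC, any 3 bases, GAA). The ISRE core was in a window of 8 of these 9 members, against 3.99% of 27025 mouse genes and 3.44% of their 32851 windows. A GAS core was in 5 of the 9, against 9.55% of genes and 8.30% of all windows. Below are the bases from 110 to 11 before the start, written 5′ to 3′ on the strand of the gene, with ISRE and GAS cores in capitals. In the 3 Gbp genes the ISRE core lies on the opposite strand and reads TTTC, any 2 bases, TTTC.
Irgm1 (chr11:48871431-48871530, minus strand): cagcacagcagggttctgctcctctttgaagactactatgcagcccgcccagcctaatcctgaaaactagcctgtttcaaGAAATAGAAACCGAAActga
Irgm2 (chr11:58214867-58214966, plus strand): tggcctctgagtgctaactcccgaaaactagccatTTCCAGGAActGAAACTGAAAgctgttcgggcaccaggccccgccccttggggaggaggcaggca
Igtp (chr11:58199446-58199545, plus strand): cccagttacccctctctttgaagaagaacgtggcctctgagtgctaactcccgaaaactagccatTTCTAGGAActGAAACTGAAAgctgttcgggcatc
Tgtp1 (chr11:48992257-48992356, minus strand): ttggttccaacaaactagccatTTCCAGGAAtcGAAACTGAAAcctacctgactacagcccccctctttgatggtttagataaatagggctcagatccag
Tgtp2 (chr11:49064223-49064322, minus strand): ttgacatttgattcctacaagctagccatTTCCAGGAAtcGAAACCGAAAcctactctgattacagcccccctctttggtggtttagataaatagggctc
Ifi47 (chr11:49076477-49076576, plus strand): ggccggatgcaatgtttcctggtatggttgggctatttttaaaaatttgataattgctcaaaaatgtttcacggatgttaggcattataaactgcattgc
Gbp2 (chr3:142620553-142620652, plus strand): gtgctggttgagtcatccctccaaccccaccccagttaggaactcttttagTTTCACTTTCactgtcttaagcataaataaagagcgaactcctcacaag
Gbp3 (chr3:142559934-142560033, plus strand): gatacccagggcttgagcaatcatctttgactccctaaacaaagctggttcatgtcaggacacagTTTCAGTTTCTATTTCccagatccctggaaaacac
Gbp7 (chr3:142530226-142530325, plus strand): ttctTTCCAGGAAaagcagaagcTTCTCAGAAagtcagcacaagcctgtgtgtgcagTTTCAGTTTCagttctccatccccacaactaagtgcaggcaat

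In Irgm2, Igtp, Tgtp1 and Tgtp2 the GAS core was followed after 2 bases by the ISRE core, so that both form 1 run of 21 letters. This joined form, searched after the windows had been read, occurred in 5 of the 32851 windows (0.0152%), and the fifth belongs to Gm12185, a gene that overlaps Tgtp1. Its distance from the start differed between the 4 members, at 45 bases before the start in Igtp, 75 in Irgm2, 81 in Tgtp2 and 88 in Tgtp1. The Igtp and Irgm2 windows shared an identical run of 61 bases that starts at -11 in Igtp and at -41 in Irgm2, counted from the start base as 0, and the longest run shared by the Tgtp1 and Tgtp2 windows was 27 bases. Irgm1 and Gbp3 each held 2 overlapping ISRE cores, and the second RefSeq window of Gbp3 held none. Gbp7 held 2 GAS cores apart from its ISRE core. Ifi47 held neither core in its window. A match is only a run of letters and does not show that a factor bound there.

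**Figure D1:**
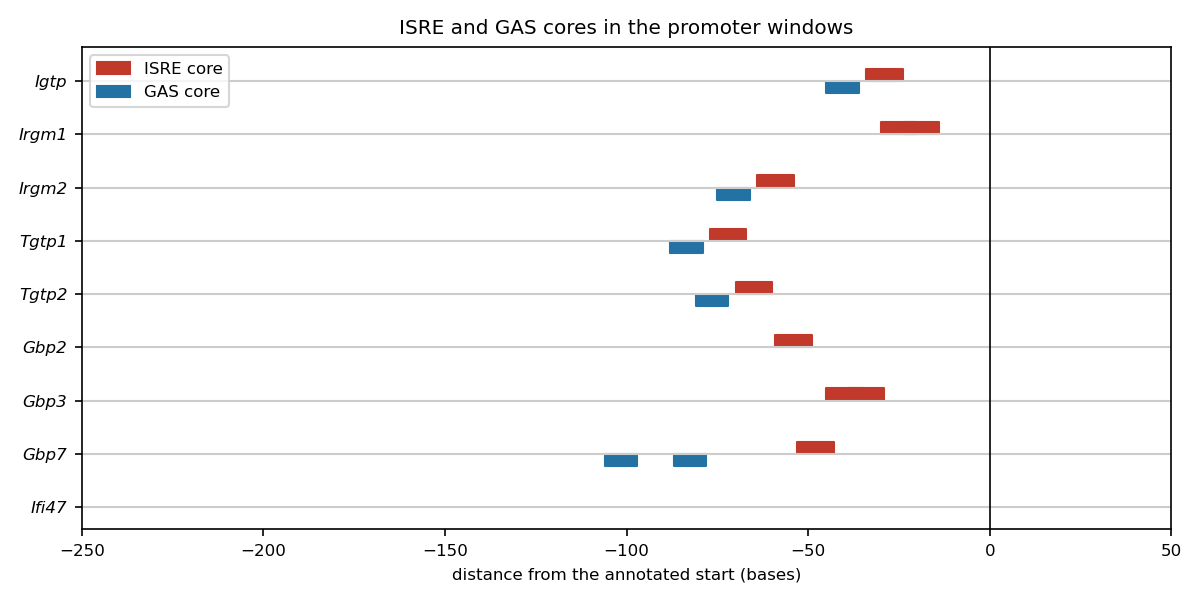
Positions of ISRE cores (red, above each line) and GAS cores (blue, below) in the first 300-base RefSeq window of each member, with the distance from the annotated start in bases on the x axis. In Igtp, Irgm2, Tgtp1 and Tgtp2 the 2 cores lie side by side, and the line of Ifi47 is empty.

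In the mouse genome (GRCm38) the members sit in clusters. Irgm1 (chr11:48861968-48871683), Tgtp1 (chr11:48985327-48994172), Tgtp2 (chr11:49057194-49064206) and Ifi47 (chr11:49076587-49096974) are neighbours on chromosome 11. Igtp (chr11:58199556-58207591) and Irgm2 (chr11:58199618-58222782) form a second group on that chromosome and share 162 exonic bases on the same strand in the annotation. Gbp7 (chr3:142530342-142550149), Gbp3 (chr3:142560026-142573209) and Gbp2 (chr3:142620602-142638008) lie in a row on chromosome 3, and the position of Iigp1 is not given here. Tgtp1 and Tgtp2 are near copies, with 4 different bases in 1248 aligned coding bases. Of all 69-base windows of their annotated transcripts, 78.2% of those of Tgtp1 and 82.5% of those of Tgtp2 also occurred in another gene. For the other 8 members this share was between 0.0337% (Iigp1) and 11.6% (Gbp7), the latter mostly with a pseudogene, Gm43802, at 4 to 7 counts per library.

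The 8 libraries held 31047344 to 38216877 counts and resembled each other, with Spearman correlations of 0.969 to 0.982 between their log2 CPM values. The sorted cells carried the labelled identity, with Cxcl12, the chemokine that marks these cells, at 39573 to 50614 CPM (counts scaled to the library size) and Lepr at 3578 to 5026 CPM over all libraries. Cxcr4, deleted in blood progenitors and not in MSPCs, had 19, 14, 13 and 4 counts in CTL replicates 1 to 4 and 12, 7, 11 and 0 in the cKO replicates, so its level in these cells does not check the genotype labels. Ptprc (CD45) had 0 to 32 counts, and Cd3e, Ncr1 and Gzmb had none in any library. Of the endothelial markers, Tek had none, whereas Emcn had 13 to 173, Egfl7 27 to 90 and Flt4 0 to 202 counts. CTL replicate 3 carried B-lineage RNA, at a summed 120.4 CPM over 7 markers against 3.97 CPM at most in the cKO libraries.

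Transcripts of all 10 members were counted in the sorted MSPCs of both genotypes, and the labels name no treatment. Iigp1 stood highest, with 90.5 CPM per kilobase of exon in CTL and 132 in cKO, rank 323 of 52489 genes ranked by their mean over all libraries. Irgm2 (64.2 CPM per kilobase over all libraries), Igtp (45.6), Gbp2 (42.3) and Ifi47 (40.1) followed. Gbp3 (22.6) and Irgm1 (22.4) were nearly equal, as were Gbp7 (13.3) and Tgtp2 (12.1), and Tgtp1 came last (3.88, rank 7904). Of the 69-base windows, 78.2% for Tgtp1 and 82.5% for Tgtp2 also occur in another gene. Their reads can be divided or dropped in counting, so the places of these near copies in the order are uncertain. Iigp1 was above Irgm2, Irgm2 above Igtp, and Irgm1 above Gbp7 in all 8 libraries, by more than the SD over libraries of either gene. Tgtp2 was above Tgtp1 in 5 of 8 libraries, and the other neighbours in this order differed by less than the larger of their SDs. The interferon genes themselves gave almost no reads. Of 21 listed, 20 were at 0 counts in every library and Ifnz had 0 to 9 counts.

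The cKO mean was above the CTL mean for all 10 members, and for none did the difference pass the test. For Tgtp1 this direction turned in 7 of 20 alternatives, to -0.73 in edgeR and -0.80 in DESeq2 with a title number term and to -0.65 in limma-voom. The log2 fold changes in edgeR's quasi-likelihood fit ran from 0.15 (Tgtp1) to 0.78 (Tgtp2), with a median of 0.44 over the members and -0.0013 over all 14598 genes tested. A value above 0 was found for 49.8% of all genes. The smallest adjusted p of a member was 0.999 (Benjamini-Hochberg over all genes tested). Across the table edgeR called 0 genes (0% of those tested), with 646 (4.43%) at an unadjusted p under 0.05 in either direction. Limma-voom also called 0, and DESeq2 called 23 by its Wald test, 22 by its likelihood ratio test and 47 with the title number range as a term, no member among them. At an unadjusted p under 0.05 and higher in cKO stood 5 of the 10 members, Igtp, Irgm1, Irgm2, Iigp1 and Gbp3, against 2.35% of all genes, and 0 members were lower at that p, against 2.08%. This count moved with single libraries, to 3 without CTL replicate 1, 1 without CTL replicate 2, 2 without CTL replicate 4, 1 without cKO replicate 1, 0 without cKO replicate 2 and 3 without cKO replicate 3. The groups overlapped for all 10 members, whereas every cKO library stood above every CTL library for 1.34% of all genes and below for 1.27%. The members were chosen with results of these libraries known, so their direction is not independent evidence. In bulk RNA a larger share of expressing cells and more RNA per cell cannot be told apart.

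**Figure D2:**
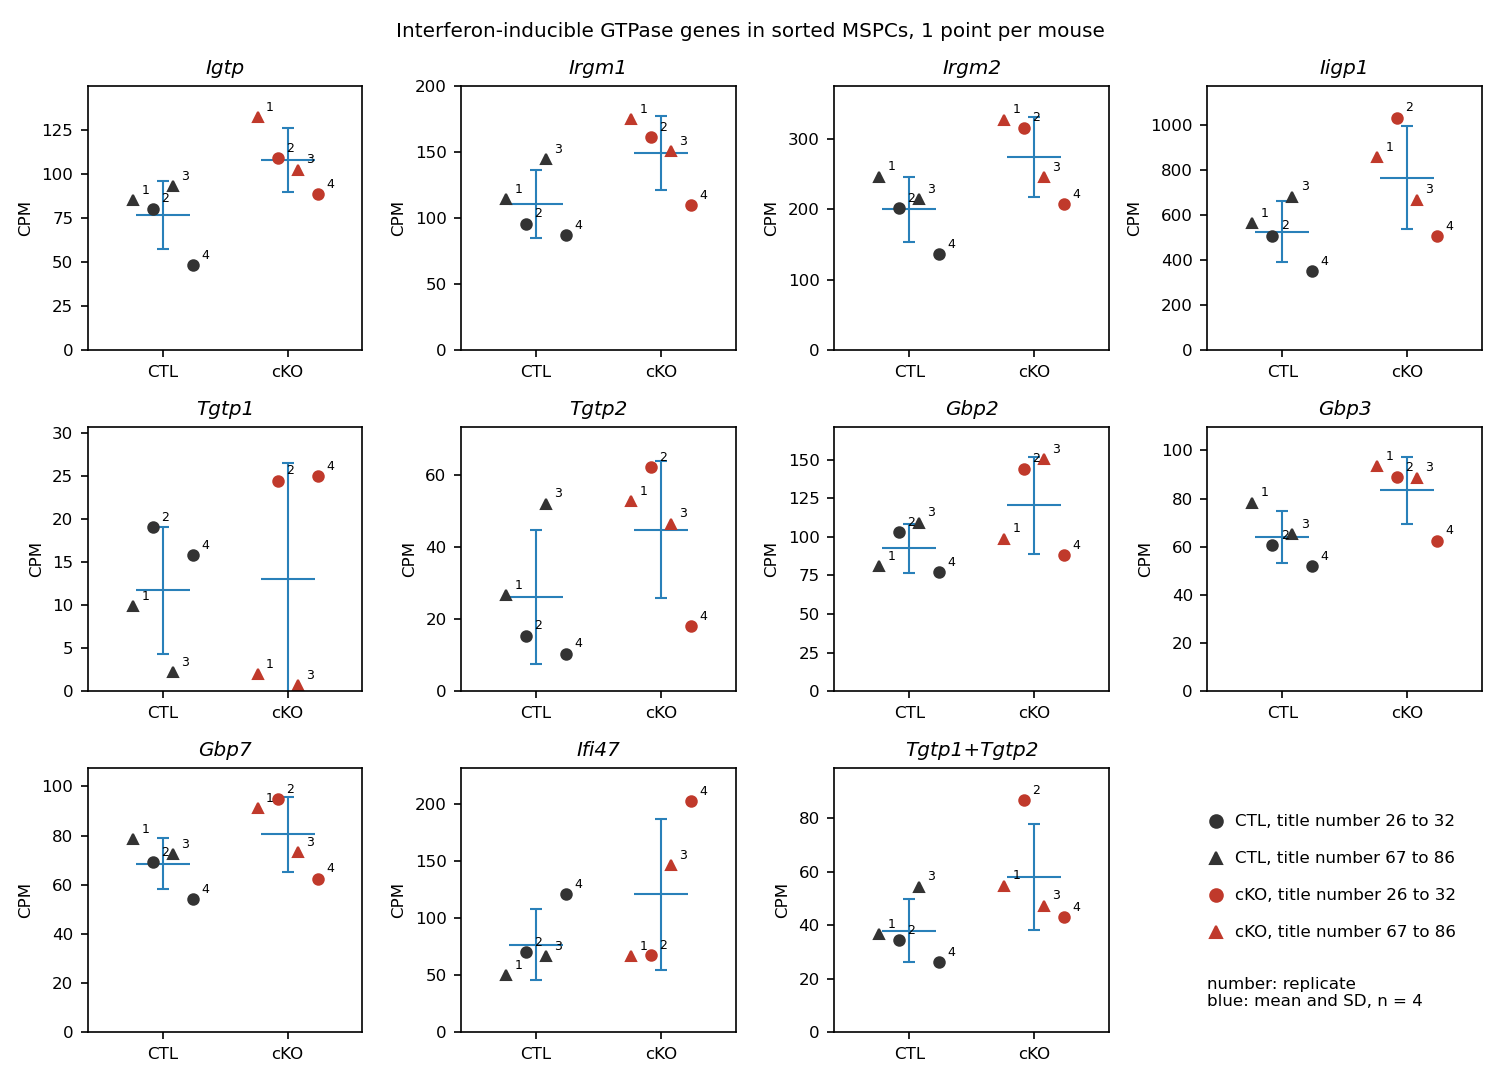
CPM (TMM-scaled) of each member and of Tgtp1 and Tgtp2 summed, 1 point per mouse in CTL (black) and cKO (red), with the replicate number beside each point, circles for title numbers 26 to 32 and triangles for 67 to 86, and the mean and SD of 4 libraries in blue (the Tgtp1 bar in cKO is clipped at 0). CTL replicate 4 is the lowest point in 8 of the 10 members, and the groups overlap in every panel.

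Among the regulatory IRGs, Igtp stood at 85.0, 80.3, 92.9 and 48.5 CPM in CTL replicates 1 to 4 and at 132, 109, 102 and 88.3 CPM in cKO replicates 1 to 4. The 3 highest libraries were cKO, and cKO replicate 4 lay below CTL replicate 3. The log2 fold change of Igtp was 0.49 (SE 0.20, unadjusted p = 0.0316), with means of 76.7 ± 19.5 CPM in CTL and 108 ± 18.2 CPM in cKO (SD, n = 4, p from edgeR), and it was 0.32 without CTL replicate 4. Irgm1, which protects the cell's own organelles and lysosomes, stood at 115, 96.1, 145 and 87.4 CPM in CTL and 175, 162, 151 and 110.1 CPM in cKO. Again 3 cKO libraries lay above every CTL library, and cKO replicate 4 was below 2 CTL libraries, replicates 1 and 3. Its log2 fold change was 0.43 (SE 0.18, unadjusted p = 0.041). Irgm2, a Golgi-associated regulator, stood at 246, 202, 214 and 137 CPM in CTL and 327, 316, 245 and 208 CPM in cKO, with a log2 fold change of 0.45 (SE 0.20, unadjusted p = 0.042). Only cKO replicates 1 and 2 were above the highest CTL library. Thus the 3 regulators had similar log2 fold changes, from 0.43 to 0.49, and in each the lowest library was CTL replicate 4.

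Among the effector IRGs, Iigp1, which loads onto vacuole membranes, had 565, 509, 682 and 352 CPM in CTL and 856, 1032, 669 and 507 CPM in cKO. The 2 highest libraries were cKO replicates 2 and 1, cKO replicate 3 was below CTL replicate 3, and cKO replicate 4 was below 3 of the 4 CTL libraries. The log2 fold change was 0.54 (SE 0.24, unadjusted p = 0.0482), and the means were 527 ± 137 CPM and 766 ± 227 CPM. Without cKO replicate 2 it was 0.36.

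Ifi47 was ordered differently from the rest. Its values were 49.9, 70.2, 66.8 and 121 CPM in CTL and 67.2, 67.6, 147 and 203 CPM in cKO. CTL replicate 4, the lowest library of 8 other members, was the highest CTL library for Ifi47, and cKO replicate 4 was the highest of all. The log2 fold change was 0.65 (SE 0.38, unadjusted p = 0.121), and 0.28 without cKO replicate 4. Over the 8 libraries, after the mean of each genotype was removed, the log2 CPM of Ifi47 had a Pearson correlation of -0.83 with the mean of the other 9 members. The same value was -0.54 for Tgtp1 and lay between 0.12 (Tgtp2) and 0.69 (Gbp7) for the remaining 8. The labels do not define the batches that the study's methods name, and the correlations are descriptions. Olfr56, which shares 111 exonic bases with Ifi47 on the same strand, had 40, 0, 56 and 1 counts in CTL and 193, 154, 74 and 0 counts in cKO, with 1 or 0 in both libraries in which Ifi47 was highest within its genotype, and its part in the Ifi47 values was not tested.

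Tgtp1 and Tgtp2, which encode the effector Irgb6, were divided differently between libraries. Tgtp1 had 9.94, 19.1, 2.26 and 15.9 CPM in CTL and 2.02, 24.5, 0.767 and 25.0 CPM in cKO, a spread far wider than the difference between the means, and a log2 fold change of 0.15 (SE 0.96, unadjusted p = 0.877). It was below 0 in 3 of 8 fits that omit a library, at -0.19 (CTL replicate 3), -0.34 (cKO replicate 2) and -0.37 (cKO replicate 4). Tgtp2 had 26.7, 15.5, 52.2 and 10.5 CPM in CTL and 52.8, 62.2, 46.5 and 18.1 CPM in cKO, with a log2 fold change of 0.78 (SE 0.49, unadjusted p = 0.146). Without CTL replicate 3 it was 1.35 (unadjusted p = 0.0125, edgeR), and without CTL replicate 4 it was 0.51. Where Tgtp1 was lowest, in CTL replicate 3 and cKO replicates 1 and 3, Tgtp2 was at 46.5 CPM or more, whereas in cKO replicate 2 both were high, at 24.5 and 62.2 CPM. Of the counts of the pair, Tgtp1 took 55.2% in CTL replicate 2, 60.2% in CTL replicate 4, 28.3% in cKO replicate 2 and 58.1% in cKO replicate 4, the libraries with title numbers 26 to 32. In the libraries with title numbers 67 to 86 it took 27.2% in CTL replicate 1, 4.15% in CTL replicate 3, 3.68% in cKO replicate 1 and 1.62% in cKO replicate 3. All 4 shares of the first range were above all 4 of the second, with 28.3% and 27.2% as the nearest. The title number term of Tgtp1 was -2.78 on the log2 scale, 67 to 86 minus 26 to 32 (SE 0.68, unadjusted p = 0.0029, adjusted p = 0.208, edgeR), and 2 genes in the table (0.0137%) were called for that term, with 11.6% of genes at an unadjusted p under 0.05. Reads of near copies can be divided or dropped by alignment and counting, and this was not tested.

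As a sum, the pair varied less. Tgtp1 and Tgtp2 together stood at 36.6, 34.5, 54.4 and 26.3 CPM in CTL and 54.8, 86.7, 47.3 and 43.1 CPM in cKO. The highest library was cKO replicate 2, and CTL replicate 3 lay within the cKO range. The log2 fold change of the sum was 0.61 (SE 0.26, unadjusted p = 0.042), close to that of Iigp1, and its standard error was below that of either gene alone. Without cKO replicate 2 it was 0.35 (unadjusted p = 0.155, edgeR), and the unadjusted p was under 0.05 in 3 of 8 fits that omit a library.

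**Figure D3:**
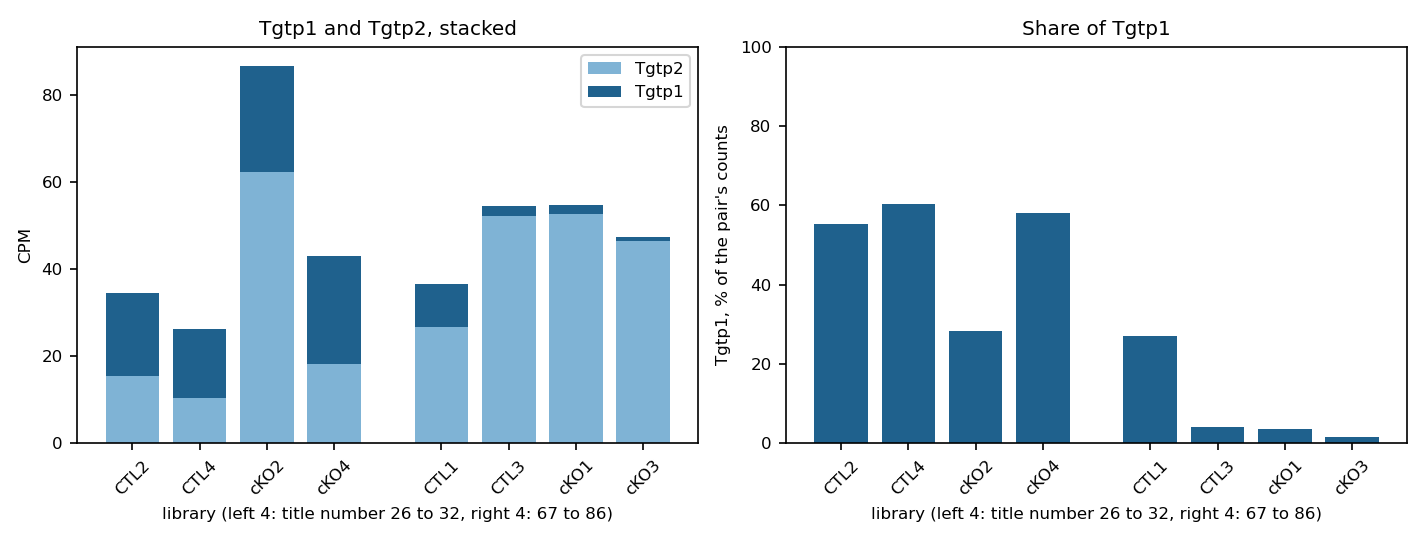
Left, CPM of Tgtp2 (light) and Tgtp1 (dark) stacked for each library. Right, Tgtp1 as a percentage of the counts of the pair. Libraries are ordered by title number range, and the 4 libraries of 26 to 32 have Tgtp1 shares of 28.3% to 60.2% against 1.62% to 27.2% in 67 to 86.

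The log2 fold changes of the GBP members lay between 0.23 and 0.38. Gbp2, which helps to lyse vacuoles and is strongly induced by interferon gamma, stood at 81.1, 103, 109 and 77.4 CPM in CTL and 98.9, 144, 150.3 and 88.4 CPM in cKO, with a log2 fold change of 0.38 (SE 0.19, unadjusted p = 0.0772). Only cKO replicates 2 and 3 were above the highest CTL library. Gbp3 stood at 78.3, 60.8, 65.1 and 52.1 CPM in CTL and 93.5, 88.8, 88.8 and 62.6 CPM in cKO. Here 3 cKO libraries lay above every CTL library, close together, and cKO replicate 4 stood apart below them, under 2 of the CTL libraries. The log2 fold change of Gbp3 was 0.38 (SE 0.16, unadjusted p = 0.0377), the smallest standard error of any member. Gbp7 stood at 78.6, 69.2, 72.5 and 54.1 CPM in CTL and 91.3, 94.7, 73.4 and 62.5 CPM in cKO, with a log2 fold change of 0.23 (SE 0.16, unadjusted p = 0.181), and 2 cKO libraries were above the highest CTL library. It was 0.13 without CTL replicate 4 and 0.14 without cKO replicate 2.

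The lowest library was shared by most members, CTL replicate 4 for 8 of the 10, and the highest was not, with cKO replicate 1 for 4 members, replicate 2 for 3, replicate 4 for 2 and replicate 3 for 1. Summed over the 10 genes, the CTL libraries 1 to 4 held 1336, 1225, 1502 and 956 CPM and the cKO libraries 1896, 2100.5, 1675 and 1373 CPM, and Iigp1 alone made up the largest part. CTL replicate 4 was the lowest and cKO replicate 4 the lowest of its genotype, below CTL replicate 3. The median log2 fold change of the members was 0.44 with all libraries, 0.32 without CTL replicate 4 and 0.53 without CTL replicate 3. Within both title number ranges, 2 libraries against 2, the cKO mean was higher for 9 of the 10 members. The differences of mean log2 CPM were 0.65 in 26 to 32 and 0.39 in 67 to 86 for Igtp, 0.54 in 26 to 32 and 0.33 in 67 to 86 for Irgm1, 0.62 in 26 to 32 and 0.30 in 67 to 86 for Irgm2 and 0.77 in 26 to 32 and 0.29 in 67 to 86 for Iigp1. Tgtp1 was the exception, with 0.51 in 26 to 32 and -1.88 in 67 to 86. The interaction of genotype and range was -2.63 for Tgtp1 (SE 0.94, unadjusted p = 0.023, adjusted p = 0.9998, edgeR), and 0 genes (0%) passed for this term. For the summed pair the differences were 1.02 in 26 to 32 and 0.19 in 67 to 86, and for Ifi47 0.34 in 26 to 32 and 0.78 in 67 to 86.

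**Figure D4:**
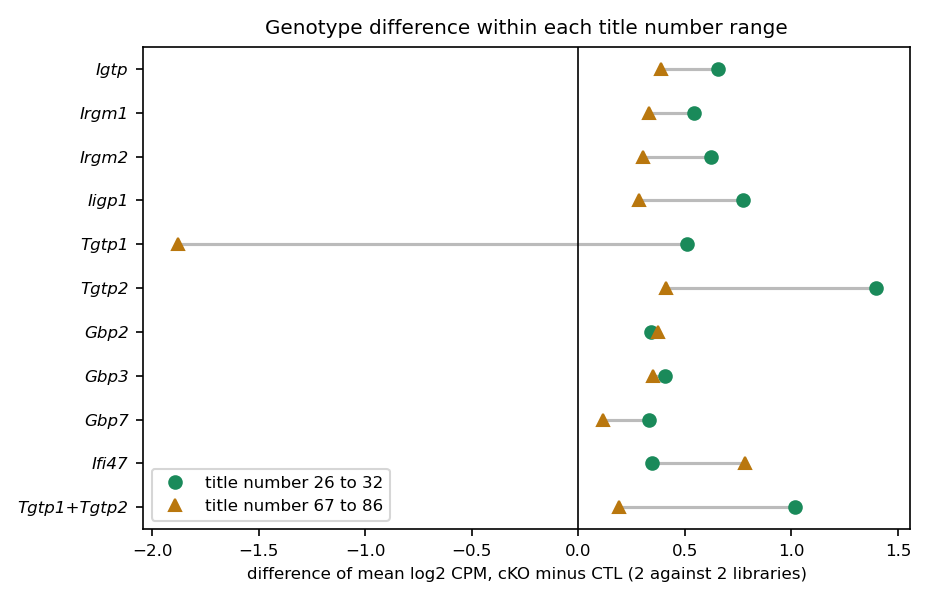
Difference of mean log2 CPM, cKO minus CTL, within title numbers 26 to 32 (circles) and 67 to 86 (triangles), 2 libraries against 2 in each. All members lie above 0 in both ranges except Tgtp1, at 0.51 in 26 to 32 and -1.88 in 67 to 86.

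Only some relatives of the members had reads in every library. Of 22 listed IRG, GBP, GVIN and Mx relatives in the table, 10 had a count in every library, 8 of these were higher and 2 lower in cKO, and their median log2 fold change was 0.23. None passed at the adjusted threshold, and 1, the IRG gene F830016B08Rik, had an unadjusted p under 0.05 and was higher (log2 fold change 0.45, SE 0.18, unadjusted p = 0.031, edgeR). Gm4951, an IRG relative of Iigp1, had the highest CPM of them, at 241, 169, 187 and 165 CPM in CTL and 244, 192, 196 and 193 CPM in cKO, with a log2 fold change of 0.11 (SE 0.14). Among the GBPs, Gbp5 was at 0.27 and Gbp6 at 0.59 on the log2 scale. The antiviral Mx1 (0.79, SE 0.48) and Mx2 (0.37, SE 0.40) had means of at most 4.09 CPM. Gvin1 (-0.17, SE 0.40), Gm4070 (0.20, SE 0.25), Irgq (0.10, SE 0.19) and Gm4841 (-0.07, SE 0.65) had estimates smaller in size than their standard errors. Gm12185, 9930111J21Rik1, 9930111J21Rik2 and Gbp4, Gbp8, Gbp9, Gbp10 and Gbp11 reached 20 counts in at least 1 library and had 0 in at least 1, and Irgc1, Gm12187 and Gbp2b had no count at all.

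**Figure D5:**
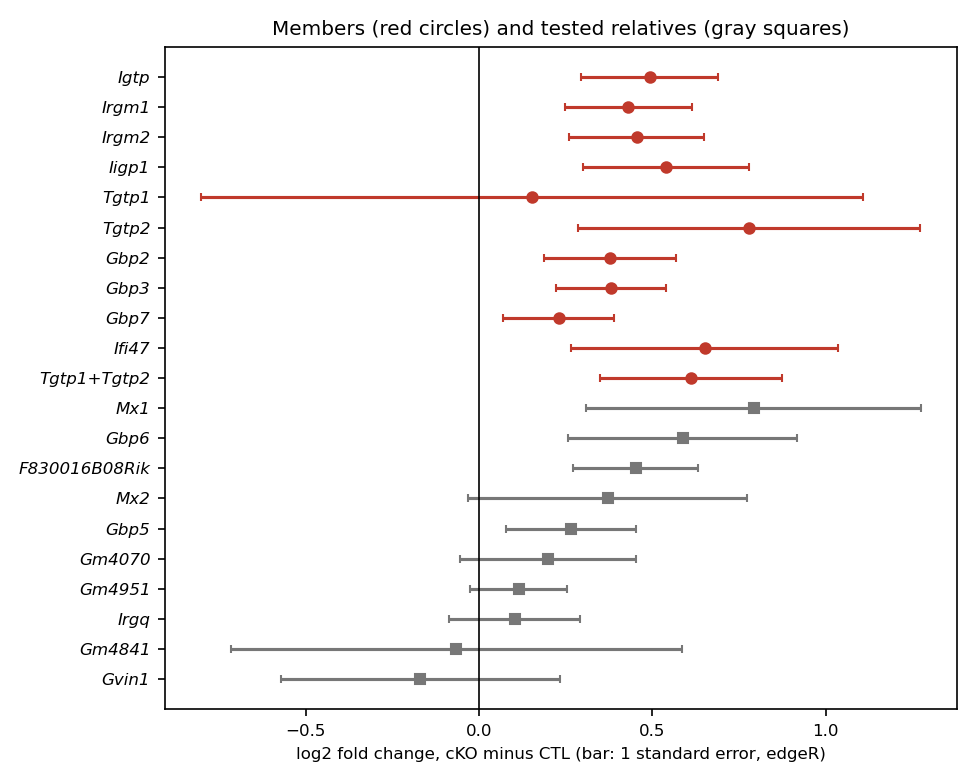
Log2 fold changes, cKO minus CTL, with 1 standard error (edgeR) for the members and the summed Tgtp pair (red circles) and for the 10 relatives with a count in every library (gray squares). All members lie above 0 in this fit, with Tgtp1 the least precise and below 0 in 7 of 20 alternatives, and the relatives run from -0.17 to 0.79.

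The listed genes of interferon signalling, inhibitors among them, all had a count in every library. Batf2 was low, with means of 0.89 CPM in CTL and 1.76 CPM in cKO. Of 18 listed receptors, kinases, transcription factors and inhibitors, 12 were higher and 6 lower in cKO, with a median log2 fold change of 0.12, and 4 had an unadjusted p under 0.05, all higher, against 2.35% of all genes. Among them were the transcription factors Stat2 (log2 fold change 0.46, SE 0.15, unadjusted p = 0.0116), Irf1 (log2 fold change 0.43, SE 0.13, unadjusted p = 0.00972) and Irf9 (log2 fold change 0.42, SE 0.17, unadjusted p = 0.0327), with no adjusted p under 0.05 in edgeR. Stat2 had 60.6, 68.5, 52.6 and 69.0 CPM in CTL and 106, 92.7, 75.7 and 70.4 CPM in cKO. Its groups did not overlap, by a narrow margin (69.0 against 70.4 CPM), and every cKO library stood above every CTL library for 1.34% of all genes. The receptor chain Ifngr1 was at 517 ± 51.7 CPM in CTL and 529 ± 32.6 CPM in cKO (SD, n = 4), and the inhibitor Socs3, with the highest CPM of the list, at 616 ± 327 CPM and 471 ± 119 CPM.

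Of the lists of genes that work with the GTPases, 1 gene was higher and 2 were lower at an unadjusted p under 0.05, against 4.43% of all genes in either direction. Among 17 genes of ubiquitin-like conjugation, which places GBPs and IRGs on vacuoles, Gabarapl1 was higher (log2 fold change 0.24, SE 0.10, unadjusted p = 0.0362) and Ube2l6 lower (log2 fold change -0.64, SE 0.28, unadjusted p = 0.0465) at an unadjusted p under 0.05, the latter with 1 high CTL library, replicate 3 at 95.7 CPM. Sqstm1 and Gabarap had the highest CPM, with log2 fold changes of 0.13 and 0.02. Among 7 genes of prenylation, the lipid tagging that anchors Gbp2 to membranes, and RhoGDI, Icmt was lower (log2 fold change -0.55, SE 0.20, unadjusted p = 0.0217). Arhgdia (-0.06) and Fnta (-0.05) had the highest CPM of this list. None of 8 inflammasome and vacuole-sensing genes tested of 11 listed had an unadjusted p under 0.05, with Lgals8 at 0.07 and Lgals9 at -0.12.

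Traces of blood cell RNA differed between libraries too. The summed level of 4 erythroid markers was 51.2 to 156 CPM in CTL and 117 to 219.8 CPM in cKO, and CTL replicate 4 held the lowest value. All 4 were above 0 in log2 fold change, and none had an unadjusted p under 0.05. The summed level of 10 macrophage and myeloid markers was 21.1 to 49.9 CPM in CTL and 29.8 to 51.5 CPM in cKO, and C1qb was the only marker of the list with an unadjusted p under 0.05 (log2 fold change 1.22, SE 0.50, unadjusted p = 0.0366). All 7 tested of these 10 were above 0. Cd68 (0.01, SE 0.49), C1qc (0.08, SE 0.37), Mpeg1 (0.10, SE 0.52) and Lyz2 (0.13, SE 0.64) were smaller than their standard errors. C1qb, C1qa (0.70, SE 0.51) and Csf1r (0.43, SE 0.26) were larger than theirs. For 10 T and NK cell markers the sums were 1.22 to 4.38 CPM and 1.41 to 2.87 CPM, with 6 at 0 in every library, and for 7 general blood cell markers 5.17 to 11.9 CPM and 6.17 to 9.66 CPM. Plasmacytoid dendritic cell markers summed to 163 to 211 CPM and 155 to 233 CPM, most of it from Bst2, with Siglech above 0 in CTL replicate 3 alone. Endothelial markers summed to 5.55 to 13.6 CPM and 3.55 to 8.53 CPM. The part of these cells in the GTPase levels was not tested.

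The genes whose library pattern was most like the mean of the members, with the genotype means removed, were Tgm1 (Pearson r = 0.97), Srpk1 (0.97), Zfp113 (0.97), Ptpn6 (0.96), Gm20559 (0.96), Srfbp1 (0.95), Rps6kb1 (0.95), Ccdc80 (0.94), Cebpz (0.93) and 2700016F22Rik (0.93), over 8 libraries and 13001 genes compared. Their own log2 fold changes lay between -0.52 (Cebpz) and 0.39 (Ccdc80). The mean of the members is weighted by Tgtp1, which varied most on the log2 scale, and these correlations are a description with no test.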

How the data were processed

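RNA from 8 mice was analysed, 4 CTL and 4 cKO, grouped by the sample titles. The deposited values are raw counts per gene. The authors trimmed paired reads of 76 bases by 7 bases at the 5′ end and by quality at the 3′ end, aligned them to GRCm38 (mm10) with HISAT2 and counted them with HTSeq-count on a GENCODE gene model. Tool versions and the strand setting are not given in the sources used here. Per the study's methods, the authors tested differences with DESeq2's likelihood ratio test and a batch term, and the labels do not define the batches.

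Ensembl identifiers were matched to symbols for 52403 of 52636 rows, and 0 columns were left unmapped. Genes with a count in every library (14598) were fitted with edgeR 4.0.16 (R 4.3.3), using TMM scaling, the quasi-likelihood test, genotype as the only term, Benjamini-Hochberg adjustment and a threshold of 0.05. CPM values are counts scaled by the library total times its TMM factor. In a second fit the rows of Tgtp1 and Tgtp2 were replaced by their sum. DESeq2 1.42.0 and limma 3.58.1 served as alternatives, beside other scalings and filters, a title number term, a replicate block and each library left out in turn. The range of total counts, 31047344 to 38216877, sets the counting precision. The replicates are separate mice, so p-values rest on the spread between mice. In the main fit this spread includes any difference between the title number ranges. The main fit has no term for the batches that the methods name.

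The members and all gene lists were chosen with earlier results of these data known. Named are all members, all relatives with a count in every library or 20 counts in any, in the other pathway lists the genes at an unadjusted p under 0.05 and the 2 with the highest CPM, the 10 genes most like the member mean among those with at least 1 CPM, and marker lists as summed CPM. The title number term of Tgtp1, the Olfr56 counts and the joined motif were chosen after the values were seen. Gene positions, exon lengths and transcript sequences came from GENCODE M21 (GRCm38), which is not the release named in the methods, promoters from RefSeq (GRCm38.p6), and alignments from Biopython. Protein sequences were not used here, and some genes of the lists are not reported here.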

Additional observations from a re-analysis of the deposited data

Results flagged for a closer look

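In Gbp3, cKO replicate 4 (62.6 CPM) stood apart from the other 3 cKO libraries (88.8 to 93.5 CPM). Its gap to the nearest of them was 0.845 of the whole range of the group, above Dixon's 95% critical value for 4 samples. Of 24 groups of 4 libraries examined (the 10 members, the summed Tgtp pair and the summed members, in each genotype), this was the only one set apart, and chance gives about 1 in 20, or 1.2 in 24. Without cKO replicate 4 the log2 fold change of Gbp3 was 0.49 in place of 0.38.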

How the results depend on the processing

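The results were recomputed under 20 alternatives, 8 of which left out 1 library. The number of genes called was 1 with edgeR's filterByExpr, 1 with no filter, 23 with DESeq2's Wald test, 22 with its likelihood ratio test and 47 with that test and the title number range, and 0 in every fit that left out a library (0 to 0). No member was called under any alternative, and the lowest adjusted p of a member was 0.357 (Irgm1, with DESeq2 and the title number range). For 9 of the 10 members the cKO value was higher in all 20 alternatives. Tgtp1 was reversed in 7 alternatives, at -0.80 in DESeq2 when the title number range was a term of its likelihood ratio test, -0.73 in edgeR with that term, -0.65 in limma-voom, -0.61 with the replicate block, and, when a library was left out, at -0.19 (CTL replicate 3), -0.34 (cKO replicate 2) and -0.37 (cKO replicate 4), and the cause was not tested. Leaving out 1 library gave a median log2 fold change of the members of 0.32 to 0.53, 0 to 6 members at an unadjusted p under 0.05 and higher in cKO, 0.35 to 0.83 for the summed Tgtp pair and -0.37 to 0.54 for Tgtp1.

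The replicate numbers were also used as a block. In the order of title numbers, same-numbered CTL and cKO libraries are neighbours (26 and 27, 31 and 32, 67 and 71, 78 and 86). Correlations of their deviations were 0.131, 0.176, 0.0844 and 0.0572, and differently numbered libraries were not compared. Whether the replicate numbers pair the mice was therefore not settled, and the main fit has no block. With the replicate block 0 genes were called, with 812 at an unadjusted p under 0.05, the member median was 0.45, the summed pair stood at 0.61, and 8 members in place of 5 were at an unadjusted p under 0.05 and higher in cKO. With 4 mice a group, the standard errors of the members' log2 fold changes were 0.16 (Gbp3) to 0.96 (Tgtp1), and reads can be divided between the near copies Tgtp1 and Tgtp2, which was not tested.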
